A study of Mus musculus with 10 samples.

Results

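Retinoic acid is made inside cells from vitamin A and acts through nuclear receptors. Retinol is oxidised to retinal, and the retinal dehydrogenases *Aldh1a1*, *Aldh1a2* and *Aldh1a3* turn retinal into retinoic acid in a step that is not reversed. *Dhrs3* encodes a reductase that returns retinal to retinol, *Cyp26b1* encodes a cytochrome P450 that oxidises retinoic acid to inactive products, and *Crabp1* and *Crabp2* encode small proteins that bind retinoic acid in the cytoplasm. In the skeleton, removal of retinoic acid is known to be needed for cartilage to form, and *Cyp26b1* is known from limb development, where it clears retinoic acid from the growing bud. The 7 genes were taken as a list of named rows, and all 7 were among the 29183 genes listed in both count tables. No measured value entered the choice of rows, although earlier results of these data were known when the list was drawn up.

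Single cells came from hind limbs of C57BL/6 mice of 2 reporter lines. In *Grem1-TdT* mice, *Grem1-creERT* switches on TdTomato from the *Rosa* locus once tamoxifen is given, here in chow for 2 weeks to mice aged 5 to 6 weeks at the start, and the label marks cells that expressed *Grem1* at that time together with their descendants. In age-paired *Lepr-TdT* mice, the constitutive *Lepr-cre* marks every cell with a history of *Lepr* expression, which includes bone marrow stroma, and no tamoxifen is named for them. *Grem1*-lineage cells were sorted from dissected articular cartilage and growth plate, whereas *Lepr*-lineage cells were sorted from whole bones with CD45, Ter119 and CD31 used to gate out blood and vessel cells. Such a gate is not described for *Grem1*-lineage cells. There were 8 plates of *Grem1*-lineage cells (numbered 1, 2 and 4 to 9) and 2 plates of *Lepr*-lineage cells, and how many mice each plate stands for is not given, so that p-values measure the spread between plates, which may be technical.

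Wells in which 350 genes or more were detected were used. *Grem1*-lineage cells were divided by 4 transcripts, since the labels do not say which tissue a well holds. Cells with more unique molecular identifiers (UMIs, counts of distinct cDNA molecules) of *Clu*, *Cilp* and *1500015O10Rik* together than of *Cnmd* are called articular-like, and all others Cnmd-rich. This gave 414 articular-like and 270 Cnmd-rich cells beside 160 *Lepr*-lineage cells. UMIs were summed per plate and group into 18 sums, with totals of 529600, 652543 and 124291 UMIs in the 3 groups. Articular-like cells were shallower than Cnmd-rich cells (medians of 1217 and 2218.5 UMIs), and the median *Lepr*-lineage cell held 505 UMIs over the genes in both tables. Summed articular markers other than those of the split ranged from 2791 to 4466 CPM (UMI counts scaled to the usual common library total) in articular-like sums and from 153 to 502 CPM in Cnmd-rich sums, with *Crtac1* at 0 in the former. The growth plate markers did not separate the groups as a list, at 1762 to 10424 CPM in articular-like and 2972 to 8724 CPM in Cnmd-rich sums. Of the 6, *Epyc*, *C1qtnf3*, *Alpl* and *Fam180a* were called lower in articular-like cells and *Col10a1* and *Dlx5* higher (log2 fold changes 2.37 and 1.06), so the names stand for the rule of the split and not for a tissue. Marrow stromal markers reached 26388 and 36895 CPM in the *Lepr*-lineage sums and at most 110 CPM in *Grem1*-lineage sums. Neutrophil-lineage markers were also high in the *Lepr*-lineage sums, at 21490 and 26932 CPM, against at most 4068 CPM in *Grem1*-lineage sums. Macrophage markers stood at 950 and 2970 CPM in the *Lepr*-lineage sums, against at most 817 CPM in *Grem1*-lineage sums. Of that list *Adgre1*, *C1qa* and *C1qc* were at 0 in the *Lepr* lineage, and of 3 tested between the lineages 1 was called higher (*Fcer1g*). Osteoblast markers varied between sums of all 3 groups, from 38.7 to 37311 CPM. Synovial or tendon fibroblast markers, of which 4 of 7 were detected in articular-like sums, moved with the split as a sum, at 51.0 to 645 CPM in articular-like and 0 to 66.9 CPM in Cnmd-rich sums (*Cd55*, *Clec3b* and *Dpp4* at 0 in the former). This lay in *Col3a1* (64 UMIs in articular-like and 7 in Cnmd-rich sums) and *Dpt* (59 and 5). *Cd34* (6 and 4) and *Col14a1* (2 and 2) differed little. The part of all these other cell types in the differences between groups below was not tested, except where values without cells rich in osteoblast, macrophage and neutrophil-lineage markers are given. In plate sums, fewer cells with a transcript and less of it per cell cannot be told apart.

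Sequences just upstream of 4 genes are shown for 2 descriptions. These are whether retinoic acid receptor letters stand near genes that differed, and how alike the starts of *Aldh1a1* and *Aldh1a7* are. The bases lie before an annotated exon, so how reads can be assigned rests on the transcripts compared below and not on them. *Aldh1a1* lies on chromosome 19 next to *Aldh1a7*, a close copy on the opposite strand (chr19:20692953-20727562, minus strand). RefSeq windows of 250 bases before each start (GRCm38.p6) were searched on both strands for the letters AGGTCA, the variant GGGTCA, the variant AGTTCA and also the variant GGTTCA, which are 6-letter elements to which retinoic acid receptors can bind. Windows were found for 5 of the 7 members, with 8 windows in all. The bases shown run 5′ to 3′ up to the first base of an annotated exon, and capitals mark a match.
Aldh1a1, inner start (chr19:20601718-20601960, plus strand): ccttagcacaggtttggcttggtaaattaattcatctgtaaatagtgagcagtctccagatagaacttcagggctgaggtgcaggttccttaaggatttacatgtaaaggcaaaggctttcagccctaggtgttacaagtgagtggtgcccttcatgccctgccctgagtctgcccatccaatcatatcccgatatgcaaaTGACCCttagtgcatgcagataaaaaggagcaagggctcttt
Aldh1a7 (chr19:20727563-20727806, minus strand): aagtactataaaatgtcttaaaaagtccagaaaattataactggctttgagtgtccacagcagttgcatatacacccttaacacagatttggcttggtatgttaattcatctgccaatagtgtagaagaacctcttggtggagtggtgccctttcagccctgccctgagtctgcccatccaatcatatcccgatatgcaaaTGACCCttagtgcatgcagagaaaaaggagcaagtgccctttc
Cyp26b1 (chr6:84593909-84594060, minus strand): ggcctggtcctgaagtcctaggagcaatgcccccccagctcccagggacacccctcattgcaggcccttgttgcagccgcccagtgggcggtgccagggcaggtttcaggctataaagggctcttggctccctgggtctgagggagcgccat
Aldh1a2 (chr9:71215539-71215788, plus strand): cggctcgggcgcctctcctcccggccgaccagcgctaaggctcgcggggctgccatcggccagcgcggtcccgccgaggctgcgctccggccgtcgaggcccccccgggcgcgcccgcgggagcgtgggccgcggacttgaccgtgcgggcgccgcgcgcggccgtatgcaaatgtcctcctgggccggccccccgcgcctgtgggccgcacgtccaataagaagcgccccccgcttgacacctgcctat
The *Aldh1a1* and *Aldh1a7* windows shared an unbroken run of 65 bases from 94 bases before the start, and both held TGACCC, the reverse complement of GGGTCA, 49 bases before the start. None of the other 7 member windows (*Dhrs3* with 3, and *Cyp26b1*, *Crabp1*, *Aldh1a2* and the outer start of *Aldh1a1*) held a match, and no member window held 2 elements of the same strand spaced by 1, 2 or 5 bases. Of all 32851 promoter windows, 38.6% held at least 1 element and 0.426% a spaced pair, so that 1 match is common. A match is only a description of the letters. Copies of a read length of 58 bases were shared between the annotated transcripts of *Aldh1a1* and *Aldh1a7* at 112 of 4934 positions of *Aldh1a1* (2.27%), and a single *Aldh1a7* UMI was counted, in articular-like cells of plate 4. No exon of the 7 members overlapped an exon of another annotated gene.

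Among the genes that make retinoic acid, the one counted most differed between articular-like and *Lepr*-lineage cells. *Aldh1a1* (chr19:20492715-20643465) was found mainly in articular-like cells, *Aldh1a2* (chr9:71215789-71296243) mainly in *Lepr*-lineage cells, and *Aldh1a3* (chr7:66390890-66427517) was rare throughout. *Aldh1a1* gave 24 UMIs in articular-like sums, with 2, 4, 10, 5, 0, 3, 0 and 0 UMIs on plates 1, 2, 4, 5, 6, 7, 8 and 9. It gave 3 UMIs in Cnmd-rich sums, 2 on plate 2 and 1 on plate 7, and 0 on both *Lepr*-lineage plates. The articular-like level was 46.1 ± 48.8 CPM (SD, n = 8) and the Cnmd-rich level 4.85 ± 9.04 CPM (n = 8). The articular-like sum was thus the higher one on 5 plates, the lower one on none, and plates 6, 8 and 9 had no UMI in either group. The ratio of pooled CPM was 9.86, with a 95% exact counting interval from 2.99 to 51.1.

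*Aldh1a1* had too few UMIs for the filter on low counts, and of the 7 members only *Dhrs3* was tested between the 2 *Grem1*-lineage groups, where 20.9% of 1071 genes were called higher in articular-like cells and 20.1% lower. The exact two-sided sign-flip permutation test of the plate differences gave a mean of 0.95 ± 0.97 on the log2 CPM scale (SD, n = 8, prior count 2), p = 0.0625. This is the smallest p that 5 plates with a difference can give. In the same edgeR quasi-likelihood test run without the filter, *Aldh1a1* was higher in articular-like cells with a log2 fold change of 3.0 and an adjusted p of 0.0019. *Aldh1a1* and *Cyp26b1* were the 2 called members of the 6 with a UMI in that fit, against 5.64% of 12510 genes called in either direction. The *Aldh1a1* call was lost without plate 4 (log2 fold change 2.35, adjusted p = 0.0895), on plates 5 to 9 alone (2.70, adjusted p = 0.251), when cells were thinned to one depth (1.57, adjusted p = 0.399) and when *Clu* was left out of the split (1.34, adjusted p = 0.282), with its direction kept in all 4. Of the 24 articular-like UMIs, 16 came from plates 1, 2 and 4 (80.6 CPM pooled) and 8 from plates 5 to 9 (24.2 CPM pooled), values that are given side by side without a test.

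*Aldh1a2* showed the reverse distribution. It was counted 5 and 14 times on the *Lepr*-lineage plates 1 and 2, not at all in the 8 articular-like sums, and 2 times in Cnmd-rich cells, both on plate 2. The *Lepr*-lineage level was 127 ± 91.5 CPM (SD, n = 2), with 62.7 CPM on plate 1 and 192 CPM on plate 2. The lower of them stood above the highest *Grem1*-lineage sum at 21.4 CPM. With a floor of 3 counts over the group in place of the 0 of articular-like cells, the pooled *Lepr*-lineage level was 27.0-fold higher. This value leaves out the counting error of the 19 *Lepr*-lineage UMIs. Against Cnmd-rich cells with 2 UMIs the ratio of pooled CPM was 49.9, with a counting interval from 12.0 to 442.

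Between the lineages *Aldh1a2* was the one called member of the 3 that passed the filter, with a log2 fold change of 5.43 ± 0.85 (SE) and an adjusted p of 2.1e-04 (edgeR). It passed the filter only through the group where it was high, so it had to differ to be tested. Of all 2944 genes tested, 12.2% were called higher in the *Lepr* lineage and 16.7% lower. Without the filter *Aldh1a2* was again the one called member of 7, where 8.14% of 13283 genes were called in either direction. The exact two-sided permutation test of the 2 against 8 sums gave p = 0.0222, which is the smallest p of this design, in each of the comparisons with all *Grem1*-lineage, articular-like and Cnmd-rich sums. When cells were thinned to 529 UMIs, which leaves 77 of the 160 *Lepr*-lineage cells and 3 *Aldh1a2* UMIs, the exact permutation p was 0.2. When cells with 10 or more UMIs of osteoblast, macrophage and neutrophil-lineage markers were left out, the difference between the lineages was 2.96 on the log2 CPM scale, beside 2.83 with them (exact permutation test, p = 0.0222 for both).

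**Figure D1:**
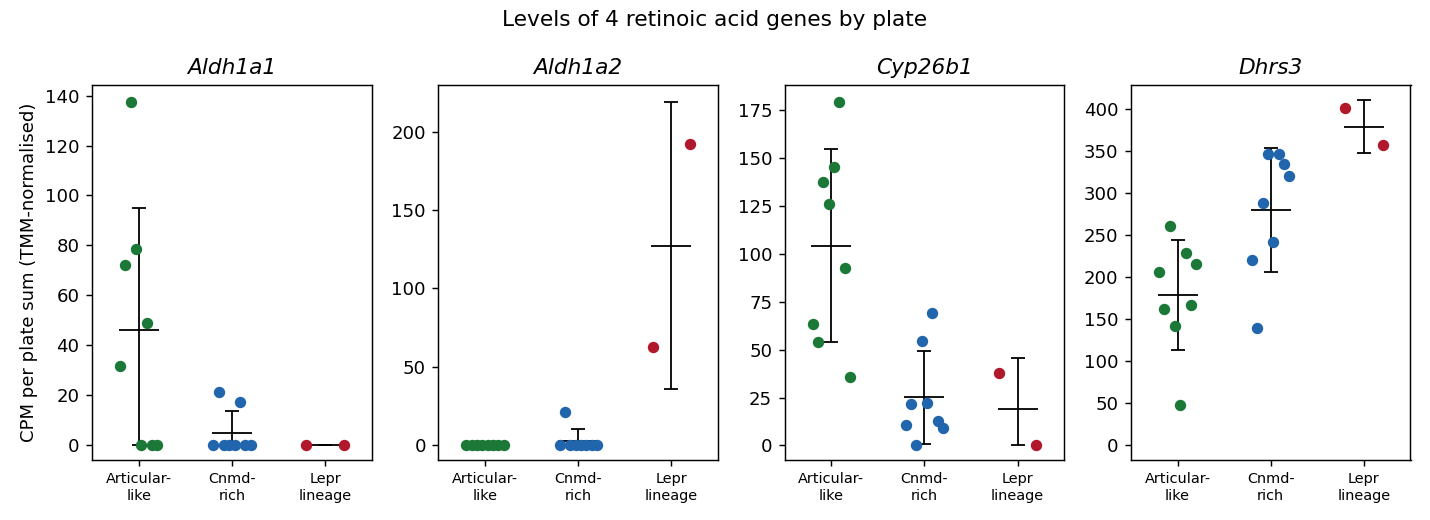
CPM of *Aldh1a1*, *Aldh1a2*, *Cyp26b1* and *Dhrs3* in each plate sum (points, TMM-normalised over the 18 sums) for articular-like (8 plates), Cnmd-rich (8 plates) and *Lepr*-lineage cells (2 plates), each panel with its own linear axis. Bars show the mean and SD, cut at 0, and *Aldh1a2* lies above 60 CPM on both *Lepr*-lineage plates and at or under 21.4 CPM in all other sums.

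*Aldh1a3* was counted 5 times in 3 articular-like cells, 3 times in 3 Cnmd-rich cells and 0 times in *Lepr*-lineage cells. Its articular-like level was 9.44 ± 15 CPM and its Cnmd-rich level 4.26 ± 6.06 CPM (SD, n = 8 each), a difference within the spread of the plates (exact sign-flip permutation test, p = 0.438). *Aldh1a1* and *Aldh1a3* were both at 0 in the *Lepr* lineage, but that group holds fewer UMIs and its floor of 3 counts equals 24.1 CPM. With that floor in place of 0, the pooled articular-like *Aldh1a1* level was 1.88-fold that of the *Lepr* lineage. This value leaves out the counting error and the plate spread of the articular-like UMIs, so it is not a lower bound. The edgeR test without the filter called *Aldh1a1* lower in the *Lepr* lineage than in articular-like cells (adjusted p = 0.0306, past the threshold in 9 of 20 alternatives), together with *Aldh1a2* and *Cyp26b1*, the 3 called members of 7, where 6.8% of 11668 genes were called. The exact permutation test of the sums gave p = 0.333 for *Aldh1a1*. For *Aldh1a3* the floor lies above the *Grem1*-lineage level, so that a difference was not detectable at this depth.

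*Cyp26b1* (chr6:84571414-84593908), the enzyme that breaks down retinoic acid, was higher in articular-like than in Cnmd-rich cells on every one of the 8 plates. Articular-like sums held 4, 3, 10, 8, 6, 11, 5 and 2 UMIs on plates 1, 2, 4, 5, 6, 7, 8 and 9, and Cnmd-rich sums 1, 2, 0, 6, 2, 4, 1 and 1. The levels were 104 ± 50.5 CPM in articular-like sums, with a range from 36 to 179 CPM, and 25 ± 24.2 CPM in Cnmd-rich sums, with a range from 0 to 69.3 CPM (SD, n = 8 each). The ranges overlapped between plates, while within each plate the order was the same. The mean difference was 1.38 ± 0.62 on the log2 CPM scale (SD, n = 8 plates), with p = 0.00781 in the exact two-sided sign-flip permutation test, the smallest p that 8 plates allow. The exact p was at most 0.0156 under the 15 alternatives for which it was computed. The fibroblast markers *Col3a1* and *Dpt*, but not the others of that list, were clearly more counted in the same group. The part of such cells in this difference was not tested.

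*Cyp26b1* also failed the filter on low counts. In edgeR without the filter its log2 fold change was 1.92 with an adjusted p of 0.001. The edgeR call was lost after thinning to 796 UMIs (log2 fold change 1.71, adjusted p = 0.0892) and within plates 1, 2 and 4 or plates 5 to 9 alone (log2 fold changes 2.68 and 1.60, adjusted p = 0.054 and 0.0639), with its direction kept. In *Lepr*-lineage cells *Cyp26b1* gave 3 UMIs, all in 1 cell of plate 1, a level of 18.8 ± 26.6 CPM (SD, n = 2). The difference from articular-like sums was -1.42 on the log2 CPM scale (exact permutation test, p = 0.0444, and edgeR without the filter, adjusted p = 0.0498). The difference from Cnmd-rich sums lay within the spread (exact permutation test, p = 0.689), and that from the whole *Grem1* lineage did not pass (log2 fold change -1.66 ± 0.94, adjusted p = 0.198, edgeR). This last value was -6.02 without *Lepr*-lineage plate 1 and -0.78 without plate 2 (adjusted p = 0.0761 and 0.616). The *Lepr*-lineage value is that of 1 cell, which is one of the 67 rich in markers of other cell types and one of 5 of the 160 with a *Col2a1* UMI. Without those 67 cells and their *Grem1*-lineage counterparts the difference from the whole *Grem1* lineage was -2.0 on the log2 CPM scale (exact permutation test, p = 0.0222). Leaving them out removes that 1 cell, so both *Lepr*-lineage sums were then at 0 by the removal. The size of the difference then rests on the prior count. The edgeR call against articular-like cells held in 7 of 20 alternatives. The exact permutation p against articular-like sums was under 0.05 in 7 of 15 alternatives (highest 0.0667).

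**Figure D2:**
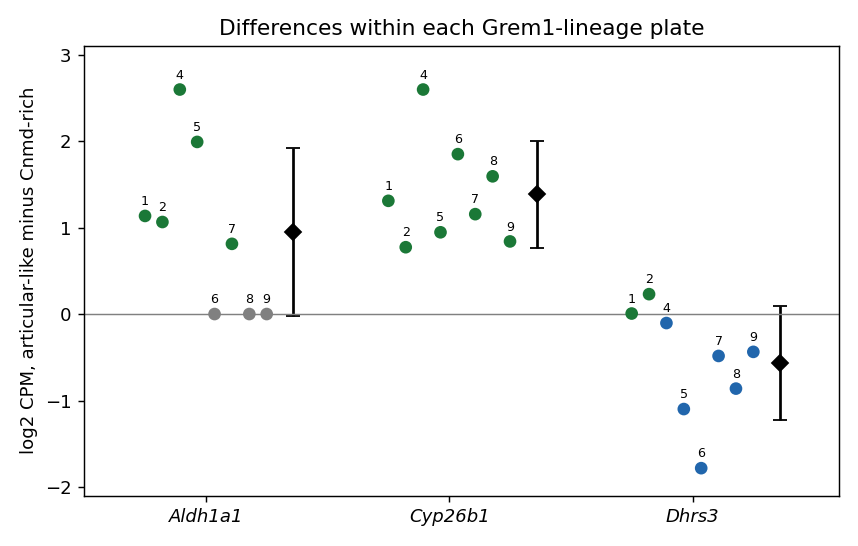
Difference in log2 CPM (prior count 2) between articular-like and Cnmd-rich cells of the same *Grem1*-lineage plate, with the plate number above each point, for *Aldh1a1*, *Cyp26b1* and *Dhrs3*. Green points lie above 0, blue points below and grey points at 0, and diamonds show the mean with its SD over 8 plates, so that *Cyp26b1* lies above 0 on 8 of 8 plates and *Dhrs3* below 0 on 6.

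*Dhrs3* (chr4:144892827-144928209), the retinal reductase, was the member with the most UMIs and the one member that passed the filter in every comparison. It was found in all 18 sums, with 87, 195 and 58 UMIs in articular-like, Cnmd-rich and *Lepr*-lineage cells. Articular-like sums held between 2 UMIs on plate 6 and 19 UMIs on plate 4, and Cnmd-rich sums between 13 UMIs on plate 2 and 38 on plate 5, while the *Lepr*-lineage plates held 32 and 26. The order of mean levels was articular-like (179 ± 65.6 CPM, n = 8), Cnmd-rich (280 ± 74.0 CPM, n = 8) and *Lepr* lineage (379 ± 31.5 CPM, n = 2). Both *Lepr*-lineage plates, at 401 and 357 CPM, stood above every *Grem1*-lineage sum, the highest of which reached 347 CPM. With the sums of *Lepr*-lineage and Cnmd-rich cells normalised alone, Cnmd-rich plate 5 (390.3 CPM) came just above *Lepr*-lineage plate 2 (387 CPM), so that this order depends on the scaling.

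Between articular-like and Cnmd-rich cells the *Dhrs3* log2 fold change was -0.54 ± 0.24 (SE), with an unadjusted p of 0.0375 and an adjusted p of 0.0822 in edgeR, and 0.0918 in DESeq2. It was therefore not called. These fits took no account of the plate pairs, and with the plate as a block the adjusted p was 0.0502 (edgeR). The articular-like sum was the lower one on 6 of 8 plates, with a mean difference of -0.57 ± 0.66 on the log2 CPM scale (exact sign-flip permutation test, p = 0.0469, and p = 0.32 after thinning to one depth). The 2 exceptions were plates 1 and 2. The sign-flip p was under 0.05 in 7 of 15 alternatives, and in 2 of the 8 that left out 1 plate (highest 0.094). Within plates 1, 2 and 4 the log2 fold change was 0.04 (adjusted p = 0.947), and within plates 5 to 9 it was -0.91 (adjusted p = 0.0219), where a test of the difference between these sets of plates was not run.

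Neither pair of neighbours in the order was called. Between its ends, the *Lepr* lineage exceeded articular-like cells by a log2 fold change of 1.03 ± 0.37 (SE, adjusted p = 0.0397, edgeR), in a comparison where 17.3% of 1580 genes were called higher and 20.4% lower. The exact permutation test of the 2 against 8 sums did not pass (difference of 1.03 on the log2 CPM scale, p = 0.0889). The edgeR call was lost without the filter on low counts (log2 fold change 0.93, adjusted p = 0.178). It was also lost without either *Lepr*-lineage plate, and without each of the *Grem1*-lineage plates 1, 2, 5 and 8, with log2 fold changes from 0.85 to 1.03 and adjusted p from 0.055 to 0.216 in these 6 cases. Against Cnmd-rich cells the log2 fold change of *Dhrs3* was 0.42 ± 0.31 (adjusted p = 0.324), and against the whole *Grem1* lineage 0.50 ± 0.28 (adjusted p = 0.188), so neither passed. Leaving out cells with 10 or more UMIs of osteoblast, macrophage and neutrophil-lineage markers (67 of the 160 *Lepr*-lineage cells, 56 Cnmd-rich and 16 articular-like cells) raised these values to 1.25 (adjusted p = 0.0364) and 1.31 (adjusted p = 0.0154). Thinning to 529 UMIs raised them to 1.82 (adjusted p = 0.0028) and 1.49 (adjusted p = 0.00176). That thinning left out 83 of the 160 *Lepr*-lineage cells but 1 cell of each *Grem1*-lineage group, so equal depth and the choice of deeper cells cannot be told apart. In the comparison with Cnmd-rich cells 16.3% of 1941 genes were called higher in the *Lepr* lineage and 16.8% lower, and without the filter, where *Aldh1a2* was the 1 called member of 7, 7.81% of 12032 were called.

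The binding proteins *Crabp1* (chr9:54764748-54773110) and *Crabp2* (chr3:87948666-87953376) were near the limit of detection in all groups. *Crabp1* gave 1 UMI, in a *Lepr*-lineage cell of plate 2, and 0 UMIs in the 684 *Grem1*-lineage cells. *Crabp2* gave 2 UMIs in 1 articular-like cell of plate 8 and 2 UMIs in 2 *Lepr*-lineage cells of plate 2. For *Crabp1* in articular-like cells a count of 0 of 414 cells allows a share of up to 0.725% of cells with a UMI (3 counts of the total), and in Cnmd-rich cells 0 of 270 allows up to 1.11%. No direction can be read from these counts.

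The same order was looked for in single cells. An *Aldh1a1* UMI was found in 20 of 414 articular-like cells (4.83%, 95% Clopper-Pearson interval 2.98 to 7.36%), 3 of 270 Cnmd-rich cells (1.11%, 0.230 to 3.21%) and 0 of 160 *Lepr*-lineage cells. For a share of 0 the limit is given as 3 counts of all cells and not as a Clopper-Pearson bound, here 1.88%. A *Cyp26b1* UMI was found in 40 articular-like (9.66%, 6.99 to 12.9%), 15 Cnmd-rich (5.56%, 3.14 to 9.0%) and 1 *Lepr*-lineage cell (0.625%, 0.0158 to 3.43%). Both transcripts were thus more often seen in the shallower of the 2 *Grem1*-lineage groups. An *Aldh1a2* UMI was found in 15 *Lepr*-lineage cells (9.38%, 5.34 to 15%), the group with the fewest UMIs per cell. After thinning to 529 UMIs this share was 2.6% (2 of 77 cells, 0.316 to 9.07%), beside 0 of 413 articular-like and 0 of 269 Cnmd-rich cells. Which of these cells should lack a transcript is not known, so the shares in the other groups serve as the background, and no correction for RNA carried between wells was made here. Intervals cover counting error only, and cells of 1 plate are not independent replicates.

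For *Dhrs3* the order of the shares also changed with thinning. Whole cells with a *Dhrs3* UMI made up 13.3% of articular-like (10.2 to 16.9%), 32.2% of Cnmd-rich (26.7 to 38.2%) and 19.4% of *Lepr*-lineage cells (13.6 to 26.4%). After thinning to 529 UMIs the shares were 7.75% (5.36 to 10.8%), 10.4% (7.03 to 14.7%) and 22.1% (13.4 to 33.0%), so that the *Lepr* lineage came first, as in the CPM of the sums. Thinning to that depth left out 83 *Lepr*-lineage cells but only 1 cell of each *Grem1*-lineage group, so the *Lepr*-lineage share is that of its deeper cells. Whole *Lepr*-lineage cells with a *Dhrs3* UMI held a median of 660 UMIs and those without 471. Cnmd-rich cells with a *Dhrs3* UMI held a median of 2663 UMIs and those without 2080. For *Cyp26b1*, thinning to 796 UMIs gave 6.50% of articular-like and 2.29% of Cnmd-rich cells, in the same order as before.

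**Figure D3:**
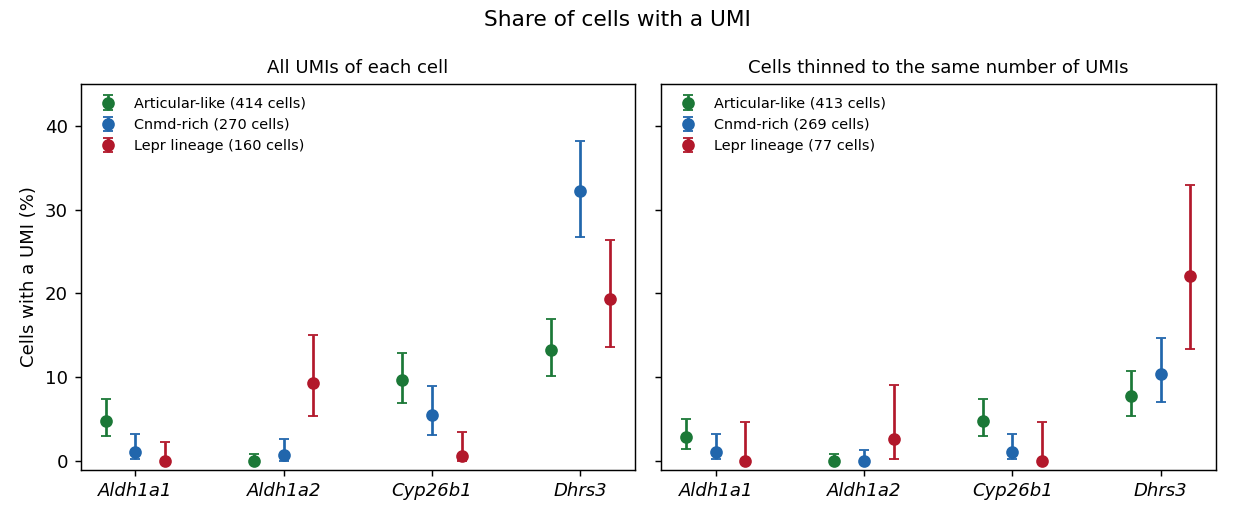
Percent of cells with at least 1 UMI of *Aldh1a1*, *Aldh1a2*, *Cyp26b1* and *Dhrs3* in articular-like, Cnmd-rich and *Lepr*-lineage cells, with 95% Clopper-Pearson intervals, for whole cells (left) and cells thinned to 529 UMIs (right). For *Dhrs3* the Cnmd-rich cells lie highest on the left at 32.2%, and the *Lepr* lineage lies highest on the right at 22.1% of the 77 deeper cells left.

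Most cells with a member transcript held a single UMI of it. This was so for 16 of the 20 articular-like *Aldh1a1* cells, 32 of the 40 *Cyp26b1* cells and 11 of the 15 *Lepr*-lineage *Aldh1a2* cells, whereas *Dhrs3* reached 9 UMIs in a Cnmd-rich cell. *Aldh1a1* and *Cyp26b1*, which make and destroy retinoic acid, were not found in the same articular-like cell (0 cells, where 1.93 would be met if they were independent). *Cyp26b1* and *Dhrs3* shared 7 articular-like cells where 5.31 would be met. *Aldh1a2* and *Dhrs3* shared 1 *Lepr*-lineage cell where 2.91 would be met. These counts are too small to read as joint or separate use. All 20 *Aldh1a1* cells and all 40 *Cyp26b1* cells of the articular-like group held *Col2a1* UMIs, as did all 414 cells of the group, and *Acan* UMIs were found in 18 and 33 of them, beside 355 of the 414. None of the 20 *Aldh1a1* cells and 1 of the 40 *Cyp26b1* cells were among the 16 articular-like cells rich in osteoblast, macrophage and neutrophil-lineage markers. Of the 15 *Aldh1a2* cells of the *Lepr* lineage, all held *Cxcl12*, as did 159 of the 160 cells, and 8 held an *Elane* UMI, a neutrophil granule protease found in 59 of the 160 cells. Of the same 15 cells, 7 were among the 67 of 160 *Lepr*-lineage cells rich in osteoblast, macrophage and neutrophil-lineage markers.

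Genes whose level over the 18 sums was most like that of a member were named by Pearson's r of log2 CPM. For *Cyp26b1* these were *Ahnak2* (r = 0.91), *Bambi* (0.90) and *Arhgap44* (0.90), and for *Dhrs3* *Gm13413* (0.82), *Gm14747* (0.82) and *Ccni* (0.78), chosen as the highest of 1987 and 1986 genes. *Bambi* encodes a decoy receptor of the TGFβ family. The sums share plates, depth and the difference between groups, so these values are descriptions without a test. No other member had the 50 UMIs set for this step.

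Other genes of the vitamin A pathway were taken from a list of 57, of which 20 are in both tables. Between articular-like and Cnmd-rich cells 2 of them had enough UMIs to be tested, and 1 was called. Of all 1071 genes tested there, 20.9% were called higher in articular-like cells and 20.1% lower. *Bhlhe40*, a transcription factor known to respond to retinoic acid and to many other signals, was higher in articular-like cells by a log2 fold change of 1.22 ± 0.22 (SE, adjusted p = 1.8e-04). *Crebbp*, a coactivator, had a value of 0.50 ± 0.25 (adjusted p = 0.125). The median of the 2 was 0.86, beside 0.01 over all genes tested. Between the lineages 6 were tested, of which 3 were higher in the *Lepr* lineage, 2 lower and 1 not called (*Adh5*, log2 fold change -0.03, adjusted p = 0.975). Over all 2944 genes tested between the lineages, 12.2% were called higher in the *Lepr* lineage and 16.7% lower. The median log2 fold change of the 6 was 1.62, beside -0.11 over all genes tested, which describes the list and no more.

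The 3 that were higher in the *Lepr* lineage passed the filter on low counts only through that lineage, with at most 31.8 (*Adh1*), 7.92 (*Cyp1b1*) and 59.0 CPM (*Dgat1*) in a *Grem1*-lineage sum, so that they had to differ to be tested and their number and p-values carry no weight of their own. *Adh1*, an alcohol dehydrogenase that can oxidise retinol, was counted 22 times on each *Lepr*-lineage plate and 15 times in the *Grem1* lineage (log2 fold change 4.25 ± 0.62, adjusted p = 1.1e-04). *Cyp1b1*, a P450 that can turn retinol into retinal and retinoic acid, was counted 11 times on each *Lepr*-lineage plate and 2 times in the *Grem1* lineage (5.62 ± 0.72, adjusted p = 3.3e-05). *Dgat1*, an acyltransferase that can esterify retinol, was called as well (3.27 ± 0.52, adjusted p = 2.4e-04), but with 54 UMIs on plate 1 and 7 on plate 2. The 2 that were lower were *Bhlhe40* (-6.12 ± 0.64, adjusted p = 4.2e-06), with 4 *Lepr*-lineage UMIs, and *Crebbp* (-1.20 ± 0.42, adjusted p = 0.0415). *Bhlhe40*, at most 48.3 CPM in a *Lepr*-lineage sum, passed the filter only through the *Grem1* lineage, so its p-value carries no weight of its own either. *Adh1* and *Cyp1b1* were also called higher against articular-like cells (4.76 and 4.52) and against Cnmd-rich cells (4.08 and 6.62, the latter with 0 *Cyp1b1* UMIs in Cnmd-rich sums). Both genes again passed the filter only through the *Lepr* lineage, so these calls carry no weight of their own either. Articular-like sums reached at most 30.6 CPM of *Adh1* and 22.5 CPM of *Cyp1b1*, and Cnmd-rich sums held 11 *Adh1* UMIs. *Bhlhe40* was lower in both comparisons, on the same 4 *Lepr*-lineage UMIs and with the same limit. *Crebbp* was called lower against articular-like cells (-1.31, adjusted p = 0.021), and had -0.88 against Cnmd-rich cells (adjusted p = 0.152). These tests all use the same 2 *Lepr*-lineage sums. Of 15 other aldehyde dehydrogenases, 4 were tested between the lineages and 1 was called, beside 12.2% of 2944 genes called higher and 16.7% lower. The called gene was *Aldh16a1* (2.74 ± 0.81, adjusted p = 0.0181), which also passed the filter only through the *Lepr* lineage. *Aldh2*, *Aldh7a1* and *Aldh9a1* were not called.

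**Figure D4:**
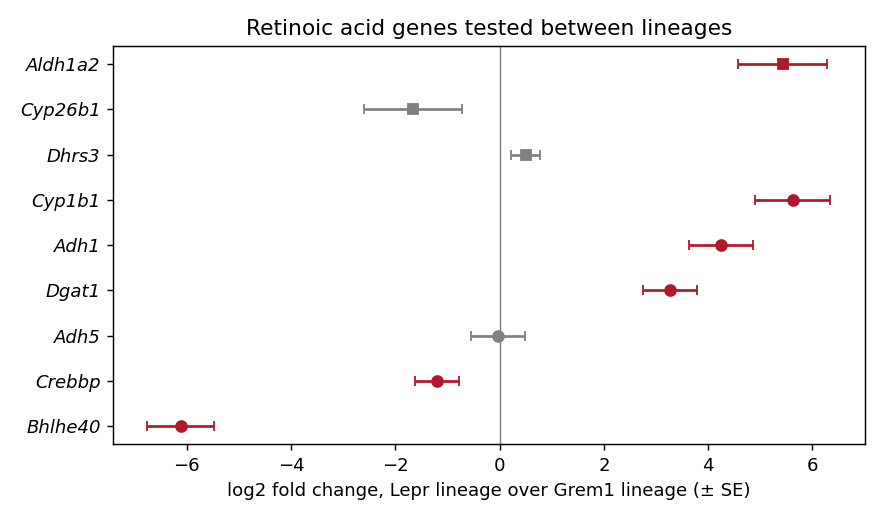
Log2 fold change (± SE, edgeR) of *Lepr*-lineage over *Grem1*-lineage plate sums for the members that passed the filter (squares) and the other retinoic acid genes tested (circles), with red for an adjusted p under 0.05 and grey for the rest. *Aldh1a2*, *Cyp1b1*, *Adh1* and *Dgat1* lie between 3.27 and 5.62, and *Bhlhe40* lies at -6.12.

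The remaining 37 genes of the list were analysed in the *Lepr* lineage alone, over 158749 and 145484 UMIs of all listed genes on plates 1 and 2. Of these, 12 had no UMI, 18 had between 1 and 9, and 7 had at least 10. The most abundant was *Rarres2*, which encodes the adipokine chemerin and is named for its response to a retinoid, with 36 and 60 UMIs. The corepressor gene *Ncor1* had 29 UMIs on each plate, and *Hdac3*, which encodes a deacetylase of the same repressor complex, had 7 and 5. *Tgm2*, a transglutaminase known to respond to retinoic acid, had 12 and 5 UMIs. The coactivator genes *Ncoa1* (4 and 7) and *Ncoa3* (8 and 2), and the lipoprotein receptor gene *Scarb1* (4 and 7), made up the rest. Receptor genes were scarce, with 1 UMI of *Rara*, 3 of *Rarg*, 8 of *Rxrb* and 0 of *Rarb*, *Rxra* and *Rxrg*. *Rdh10*, which encodes a main retinol dehydrogenase, had 1 and 4 UMIs.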

How the data were processed

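Deposited UMI counts per gene and cell were used as they are. Per the labels, the authors sequenced UMI-tagged cDNA of sorted cells in 96-well plates, and the submitters' processing notes name STAR, featureCounts, UMI-tools, SAMtools, Seurat and mm10, without versions. One incomplete last row of the *Grem1*-lineage table was left out, and genes beyond it were not analysed in that lineage. The genes in both tables held 40.9% of the *Lepr*-lineage UMIs. The members and lists were chosen with earlier results of these data known. Members, called genes of the pathway list, the 3 most similar genes of each member with 50 UMIs, *Aldh1a7* and *Lepr*-lineage list genes with 10 UMIs were named.

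Sums of at least 10 cells were tested with edgeR 4.0.16 in R 4.3.3 (TMM, filterByExpr, quasi-likelihood test, Benjamini-Hochberg adjustment at 0.05, prior count 2). The 4 genes of the split were left out where the split was used. The SE was derived from the F statistic and the fold change. DESeq2 1.42.0, its size factors, no filter, no gene minimum, thinning, other splits, the plate as a block and each plate left out were alternatives. Scripts were tested on simulated counts. No doublet caller was run, and the same 96 well barcodes recur on every *Grem1*-lineage plate. Articular-like and Cnmd-rich sums of the same plate deviated together (mean r = 0.301 across genes, above 0.1 on 8 of 8 plates) and are thus paired. The main edgeR fits between these 2 groups took no account of this pairing, while the sign-flip test and the fit with the plate as a block did. Coordinates and exons are those of GENCODE M21 (GRCm38, the assembly called mm10).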

Additional observations from a re-analysis of the deposited data

Results flagged for a closer look

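Wells left out for too few detected genes entered only the alternative with no gene minimum and none of the main comparisons above. In these wells 3 members were counted more often than the limit of 3 counts. The 84 *Grem1*-lineage wells held 39804 UMIs, among them 5 of *Aldh1a3* in 5 wells, 6 of *Cyp26b1* in 6 wells and 6 of *Dhrs3* in 4 wells. For *Aldh1a3* this was 126 CPM, beside 6.77 CPM pooled over the kept *Grem1*-lineage cells, and 4 of its 5 UMIs were in wells that fell on the articular-like side of the split. For *Cyp26b1* the values were 151 and 55.8 CPM, with all 6 UMIs in wells on the articular-like side, and for *Dhrs3* 151 and 239 CPM. *Aldh1a1* had 0 UMIs there.

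For *Aldh1a3* the articular-like sum of plate 4, at 41.2 CPM from 3 UMIs of 1 cell, stood far from the other 7 sums by Dixon's criterion for 8 samples. For normally spread values chance alone flags about 1 in 20 groups, a rate that need not hold for counts this low and was not estimated.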

How the results depend on the processing

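The number of genes called between articular-like and Cnmd-rich cells was 439. It was 705 without the filter on low counts, 177 with thinned cells and 235 on plates 1, 2 and 4 alone, and from 379 to 435 with 1 plate left out. Against the *Lepr* lineage the counts were 851 for the whole *Grem1* lineage, 597 for articular-like and 642 for Cnmd-rich cells. With thinned cells they were 393, 246 and 181. With cells rich in markers of other types left out, the first was 563. With 1 plate left out they ranged from 529 to 849, 391 to 601 and 431 to 646, where 529 and 391 are those without *Lepr*-lineage plate 2. On plates 1 and 2 alone, the fit with the replicate block gave 436, 327 and 274 genes and that with no block 451, 355 and 412. *Lepr* and *Grem1* plates of 1 number share only that number (mean r = 0.0795). The plate as a block between articular-like and Cnmd-rich cells changed no call of a member, with *Dhrs3* at an adjusted p of 0.0502.

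The direction turned for *Dhrs3* between articular-like and Cnmd-rich cells on plates 1, 2 and 4 alone (log2 fold change 0.0421), and for *Cyp26b1* between the *Lepr* lineage and Cnmd-rich cells on plates 1 and 2 with no block (0.0261) and without *Lepr*-lineage plate 2 (0.43, where leaving out 1 plate gave values from -4.17 to 0.43). *Aldh1a2* in the *Lepr* lineage, without the filter, was past the threshold in 17 of 20 alternatives against articular-like cells (not with DESeq2, log2 fold change 5.31, adjusted p = 0.9, with thinned cells, 3.63, or with the replicate block, 6.04) and in 17 of 20 against Cnmd-rich cells (not without *Lepr*-lineage plate 2, 3.73, adjusted p = 0.0778, with thinned cells, 3.56, or with the replicate block, 3.28), with its direction kept in all. The cause was not tested. Subsets of plates, cells left out for markers of other types, and the alternatives for members under the filter were chosen after seeing the data. Low counts limit *Aldh1a3*, *Crabp1* and *Crabp2* in all groups, and 2 plates limit every *Lepr*-lineage value.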
